A study of Danio rerio with 28 samples.

Results

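The 8 libraries made from zebrafish larvae at the top dose of each of 2 pollutants were set against each other: 4 libraries exposed to cadmium (Cd) at 24 ug/L and 4 exposed to PCB126 at 0.8 nM, out of 28 libraries in the series. They were chosen by their dose labels alone, and no control library entered the fit. All groups were whole larvae of the AB wild-type strain, exposed for 4 days, from day 1 to day 5 after fertilization, and polyadenylated RNA was counted per gene. The other groups, of 4 libraries each, were Cd at 2.4 and 12 ug/L, PCB126 at 0.08 and 0.4 nM, and a control. Cd and PCB126 doses are in different units and are not matched in strength, so a gene that differs may have responded to either chemical or to both. The control level is given beside the leading genes for that reason, with no test against it. The column names of the control libraries carry the prefix of the Cd series, and the labels name neither a vehicle for PCB126 nor a control of its own. Chemical and exposure series therefore cannot be told apart.

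Cadmium is a toxic metal ion that binds thiols, competes with zinc and calcium for transporters and binding sites, and damages proteins. PCB126 (3,3',4,4',5-pentachlorobiphenyl) is a coplanar, dioxin-like polychlorinated biphenyl that binds the aryl hydrocarbon receptor (AhR), a ligand-activated transcription factor. The liganded receptor moves to the nucleus, pairs with ARNT and switches on genes of xenobiotic metabolism, of which cyp1a is the best known. In zebrafish larvae Ahr2 is the receptor that mediates most dioxin toxicity, which includes heart and jaw cartilage malformation.

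Total counts ran from 11893345 to 15028109 per library. The first principal component of log2 CPM (counts scaled to library size) held 27.21% of the variance and separated Cd libraries, at -29.91 to -15.89, from PCB126 libraries, at 21.45 to 31.28. The second held 15.63% and set PCB126 0.8 nM replicate 4 apart, at -47.82 against -5.99 to 18.82 in the other libraries. In that library the count-weighted median gene length was 2677 bases, against 2757 to 2829 in the others, and ribosomal protein genes took 6.47% of counts, against 5.75 to 6.42%. What sets this library apart was not tested. Counts of called genes from fits without it are given below, and list counts are given without it where they moved by more than 1 gene and at least 1.5 times. Of the marker genes chosen for the main larval tissues, ctrb1 (pancreas), mylpfa (muscle), alas2 (red cells), mpeg1.1 (macrophages) and krt5 (epidermis) were at or near 0 in all 8 libraries, with highest levels of 0.212, 0.2193, 0.07309, 0.8771 and 2.721 CPM. Other markers of the same tissues were present, such as prss1 at 2071 to 2656 CPM and acta1b at 1192 to 2145 CPM.

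Of 24054 genes tested, 1071 (4.45%) differed between Cd 24 ug/L and PCB126 0.8 nM at an adjusted p below 0.05 (edgeR quasi-likelihood test, Benjamini-Hochberg adjustment), which is what called means below. Cd libraries were higher in 521 genes (2.17%) and lower in 550 (2.29%). Most differences were small: the median size was 0.56 on the log2 scale among higher genes and 0.58 among lower ones, and 78 and 120 genes were at least 2-fold apart. The libraries of one group all lay above those of the other in 509 of the higher and 542 of the lower genes, against 11.5% of all genes tested. A call on these same libraries favours such separation, so it describes the called genes and adds no evidence. Leaving out PCB126 replicate 4 raised the count to 1393 (5.72% of genes tested; 768 or 3.15% higher, 625 or 2.57% lower), 957 of which were among the 1071. Without Cd replicate 2 or PCB126 replicate 2, 324 or 334 genes were higher.

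The median of the control libraries lay nearer the Cd level in 475 of the 550 genes that were lower in Cd, and nearer the PCB126 level in 75. The 521 genes that were higher in Cd split more evenly, with 270 controls nearer Cd and 251 nearer PCB126. With control replicates 1 to 3 alone these became 256 and 265, while the lower genes stayed at 475 and 75. Control ranges and medians elsewhere include control replicate 4, which an alternative fit left out as divergent. Nearness was measured on log2(CPM + 0.5), and it describes levels without testing them. The plot of log2 fold change against level shows a few genes at each end far from the rest.

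**Figure D1:**
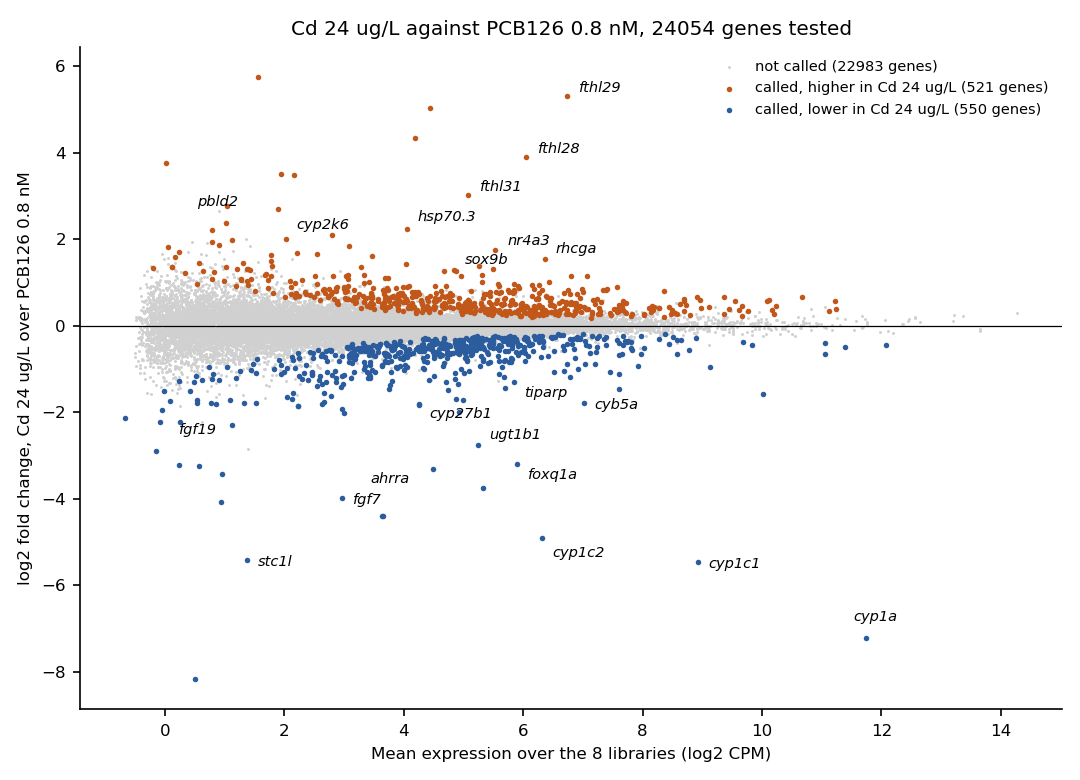
Each point is 1 of 24054 genes tested, with its mean level over the 8 libraries (log2 CPM) on the x axis and its log2 fold change, Cd 24 ug/L over PCB126 0.8 nM, on the y axis. Orange points are the 521 genes called higher in Cd, blue points the 550 called lower and grey points the rest; cyp1a, labelled, lies at -7.22, and the 1 called point below it is a locus listed without a gene symbol.

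Most tested genes of the AhR pathway were lower in Cd. Of 21 tested members of a list of AhR components and targets, 13 (61.9%) were lower in Cd, against 2.29% of all genes, and 1 (4.76%) was higher, against 2.17%. This list and those below were chosen with earlier results of these data known, so such shares describe their members and test nothing. The list's median log2 fold change was -1.23, and that of all genes tested was -0.001. Summed over the list, Cd libraries held 4988 to 5191 CPM and PCB126 libraries 13620 to 14100 CPM.

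Furthest apart on this list were 3 of the cytochrome P450 family 1 enzymes, which oxidise planar aromatic compounds. For cyp1a (chromosome 18, 5588068 to 5598958, GRCz11), Cd libraries had 44.35, 46.13, 47.52 and 44.76 CPM, and PCB126 libraries 6704, 6638, 6911 and 6919 CPM. Every Cd library lay inside the control range of 38.91 to 51.11 CPM, and every PCB126 library lay far above it. The mean was 45.69 ± 1.44 CPM in Cd and 6793 ± 143 CPM in PCB126 (SD, n = 4 each), a 149-fold difference with a log2 fold change of -7.22 ± 0.06 (SE; adjusted p = 4.21e-14). Its relative cyp1c1 had 20.32, 21.24, 23.36 and 21.01 CPM in Cd libraries, against 993, 915.1, 941.4 and 958 CPM in PCB126 libraries. The groups again did not overlap, with a log2 fold change of -5.47 ± 0.07 (adjusted p = 6.8e-13). The paralogue cyp1c2 had 5.535, 4.32, 4.513 and 5.92 CPM in Cd libraries and 152.2, 155, 166 and 140.9 CPM in PCB126 libraries, a log2 fold change of -4.92 ± 0.10 (adjusted p = 1.47e-10). The fourth tested member, cyp1d1, was lower by far less (-0.42 ± 0.09, adjusted p = 0.016), and its call was lost without Cd replicate 4 (adjusted p = 0.0568). The remaining family member, cyp1b1, was below the filter on low counts, with 1 count over the Cd libraries and 5 over the PCB126 libraries.

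Genes that restrain the receptor were on the list as well. The AhR repressor ahrra had 4.204, 3.735, 4.381 and 4.043 CPM in Cd libraries, against 40.02, 38.16, 45.07 and 39.62 CPM in PCB126 libraries, a log2 fold change of -3.31 ± 0.09 (adjusted p = 3.77e-09). Its paralogue ahrrb was below the filter. It had 0 counts in the 4 Cd libraries together, against 9, 8, 19 and 17 counts in the PCB126 libraries, and was at least 18.7-fold lower in Cd when the Cd libraries as a group are given a floor of 3 counts. The ADP-ribosyltransferase gene tiparp, whose product dampens AhR signalling, had 31.81, 35.22, 30.33 and 34.73 CPM in Cd libraries and 73.84, 79.22, 81.35 and 91.08 CPM in PCB126 libraries. Each PCB126 library was above each Cd library, and the log2 fold change was -1.30 ± 0.08 (adjusted p = 2.74e-06).

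Among the receptors, ahr2 had 118.6, 120.2, 110.6 and 100.5 CPM in Cd libraries, against 254.8, 244.4, 235.6 and 216.9 CPM in PCB126 libraries (log2 fold change -1.08 ± 0.07, adjusted p = 5.91e-06). The receptor gene ahr1a was lower in Cd too, by 1.70 ± 0.20 on the log2 scale (adjusted p = 0.000568). The third receptor, ahr1b, had a log2 fold change of -0.14 ± 0.14 and was not called. Neither were the partner genes arnt (-0.05 ± 0.34) and arnt2 (0.0 ± 0.08), nor the chaperone-complex genes aip (0.0 ± 0.06) and hsp90ab1 (-0.16 ± 0.05). Of the enzymes outside the P450 families, nqo1 (-0.14 ± 0.09) and aldh3a1 (0.07 ± 0.13), which are AhR targets in mammals, were not called.

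Developmental regulators on the list moved in both directions. The growth factor gene fgf7 (chromosome 18, 5428472 to 5439775) had 1.121, 0.4394, 1.195 and 0.8664 CPM in Cd libraries, against 14.77, 14.91, 14.62 and 13.67 CPM in PCB126 libraries. Cd libraries were near the control range of 0.6389 to 1.017 CPM, and the log2 fold change was -3.98 ± 0.20 (adjusted p = 6.66e-07). The forkhead transcription factor gene foxq1a had 10.65, 14.57, 8.695 and 12.56 CPM in Cd libraries and 100.1, 103.6, 121 and 102.7 CPM in PCB126 libraries (-3.20 ± 0.13, adjusted p = 7.87e-08). Its relatives foxq1b (-1.23 ± 0.09, adjusted p = 1.51e-05) and foxf2a (-1.25 ± 0.10, adjusted p = 3.61e-05) were also lower in Cd. The transcription factor gene sox9b, which drives cartilage differentiation, went the other way. It had 42.67, 38.3, 40.75 and 39.64 CPM in Cd libraries and 15.9, 15.05, 16.96 and 18.64 CPM in PCB126 libraries. Cd libraries were at or just below the control range of 40.78 to 45.91 CPM, PCB126 libraries were well below it, and the log2 fold change was 1.28 ± 0.08 (adjusted p = 4.57e-06).

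**Figure D2:**
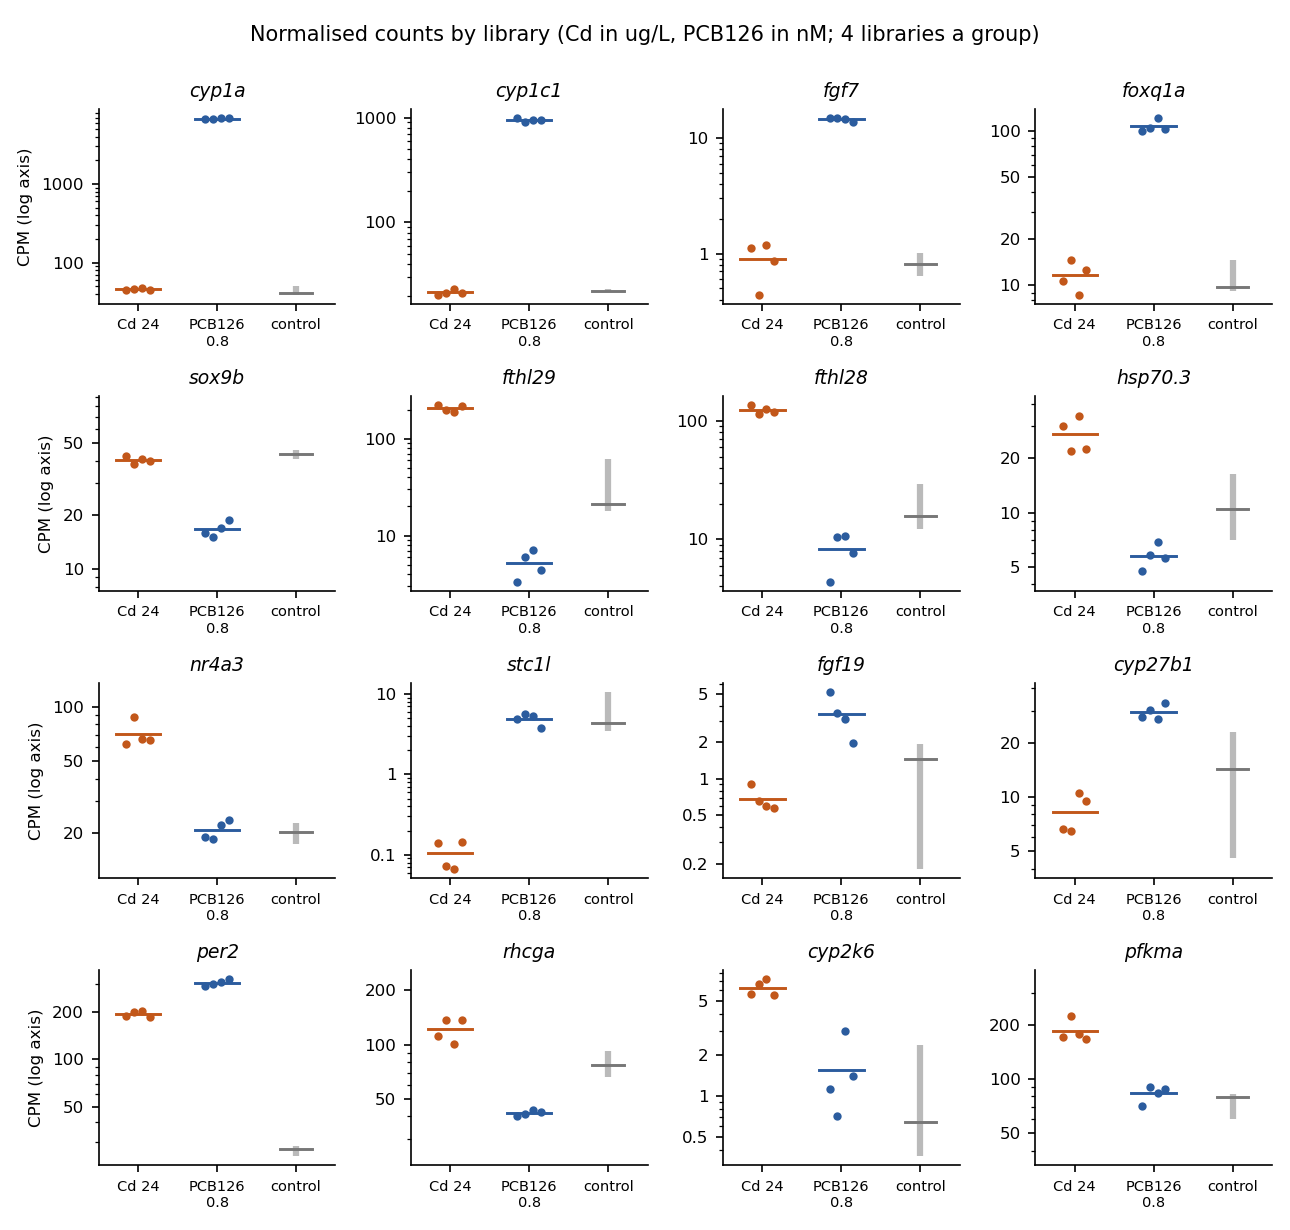
CPM per library (log axis) of 16 genes in the Cd 24 ug/L libraries, left, and the PCB126 0.8 nM libraries, middle. Points are libraries, coloured lines group means of 4, and the grey bar, right, spans the control libraries with a line at their median. All 16 were picked from the called genes, and the groups do not overlap in any of them.

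In xenobiotic metabolism outside the P450 family 1, more genes were lower than higher in Cd. Of 47 conjugation and transport genes tested, 7 (14.9%) were lower and 1 (2.13%) higher, with a list median of -0.21. The UDP-glucuronosyltransferase gene ugt1b1, also on the AhR list, had 9.809, 9.812, 10.16 and 9.313 CPM in Cd libraries, against 62.22, 62.89, 65.73 and 74.04 CPM in PCB126 libraries. Cd libraries were within the control range of 7.484 to 11.46 CPM, and the log2 fold change was -2.76 ± 0.08 (adjusted p = 3.77e-09). Its relative ugt1b5 had 13.03, 12.01, 11.22 and 11.98 CPM in Cd libraries and 51.08, 52.01, 43.44 and 46.49 CPM in PCB126 libraries (adjusted p = 9.14e-08). The gene ugt2a7 of the same enzyme class (-1.46 ± 0.11, adjusted p = 1.77e-05), the efflux pump gene abcg2a (-1.05 ± 0.07, adjusted p = 6.84e-06) and the bile salt export pump gene abcb11b (-0.83 ± 0.11, adjusted p = 0.00132) were lower too. The glucuronosyltransferase genes of family 1 share sequence, so the division of reads between ugt1b1 and ugt1b5 is uncertain.

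Among 38 tested genes of the CYP2, CYP3 and CYP4 families, 4 (10.5%) were lower in Cd and 1 (2.63%) higher, and without PCB126 replicate 4 these counts were 5 and 4. The drug-metabolising enzyme gene cyp3a65 had 471.7, 555.2, 513.9 and 521.9 CPM in Cd libraries and 1514, 1481, 1540 and 1637 CPM in PCB126 libraries. All PCB126 libraries were above all Cd libraries (log2 fold change -1.58 ± 0.06, adjusted p = 5.21e-08). The P450 gene cyp2aa11 was lower by 1.48 ± 0.07 on the log2 scale (adjusted p = 5.07e-07), and cyb5a, for cytochrome b5, which passes electrons to P450 enzymes, by 1.78 ± 0.06 (adjusted p = 1.27e-08). The single gene higher with all 8 libraries was cyp2k6, with 5.675, 6.664, 7.235 and 5.559 CPM in Cd libraries, against 1.13, 0.7067, 2.981 and 1.389 CPM in PCB126 libraries. Here PCB126 libraries were closer to the control range of 0.3589 to 2.353 CPM (log2 fold change 2.01 ± 0.33, adjusted p = 0.00532).

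Nrf2 is the transcription factor that answers oxidative and electrophile stress. Of 48 tested genes of its pathway and of glutathione and antioxidant metabolism, 3 (6.25%) were higher in Cd and 6 (12.5%) lower. The Nrf2 paralogue nfe2l2b had 7.917, 7.249, 10.82 and 7.653 CPM in Cd libraries and 33.49, 23.53, 28.89 and 32.38 CPM in PCB126 libraries. Both groups were above the control range of 4.426 to 5.385 CPM, PCB126 libraries by more (log2 fold change -1.81 ± 0.15, adjusted p = 3.56e-05). The main paralogue nfe2l2a was lower in Cd by 0.52 ± 0.05 (adjusted p = 0.000205). Higher in Cd were the autophagy receptor gene sqstm1 (0.63 ± 0.07, adjusted p = 0.000378) and the glutathione peroxidase genes gpx1b (0.56 ± 0.09, adjusted p = 0.00435) and gpx4a (0.49 ± 0.08, adjusted p = 0.00537). Another glutathione peroxidase gene, gpx3, was lower in Cd (log2 fold change -0.52, adjusted p = 0.0173). So were the glutathione transferase genes gstp2 (-0.59, adjusted p = 0.00356) and gsto1 (-0.73, adjusted p = 0.00171). The inducible targets hmox1a, for heme oxygenase (0.10 ± 0.08, adjusted p = 0.59), and gstp1, for a glutathione transferase (-0.12 ± 0.06, adjusted p = 0.323), were not called.

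The largest differences in favour of Cd were in a run of ferritin heavy chain-like genes on chromosome 3, which was singled out after its values were seen. Ferritin is the protein shell that stores iron in cells. Between positions 32099507 and 32140446 lay 8 such loci on the plus strand, and all 8 were higher in Cd. The leading one, fthl29, had 223.7, 199.5, 190.5 and 217.8 CPM in Cd libraries and 3.309, 6.007, 7.169 and 4.386 CPM in PCB126 libraries. The control range was 18.04 to 61.97 CPM, so Cd libraries lay above it and PCB126 libraries below it (log2 fold change 5.30 ± 0.16, adjusted p = 6.34e-09). Its neighbour fthl28 had 136.3, 114.2, 126.8 and 119.1 CPM in Cd libraries and 4.358, 10.53, 10.58 and 7.675 CPM in PCB126 libraries, a log2 fold change of 3.89 ± 0.19 (adjusted p = 4.42e-07). Further members were fthl31 (3.02 ± 0.17), fthl30 (2.71 ± 0.25), BX511021.1 (4.34 ± 0.16) and loci listed as zgc:92066 (5.03 ± 0.20) and zgc:109934 (5.75 ± 0.57), with adjusted p-values from 3.81e-08 to 0.000177. At the start of the run, fthl27 differed least, with 220.6, 210.2, 188.9 and 229.5 CPM in Cd libraries, against 166.2, 172.2, 167 and 175.7 CPM in PCB126 libraries (0.32 ± 0.06, adjusted p = 0.0131). These genes are near-copies of each other, so how reads were divided among them is uncertain.

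The ferritin genes outside this run did not differ detectably. The main heavy chain gene fth1a had 881.8, 961, 915 and 976.2 CPM in Cd libraries and 878.5, 903.5, 974.2 and 998 CPM in PCB126 libraries, with a log2 fold change of -0.01 ± 0.06 (adjusted p = 0.964). The groups overlapped, and the same held for fth1b (0.01 ± 0.08, adjusted p = 0.968). Of 36 tested genes of metal binding, zinc and iron handling, a list that holds none of the chromosome 3 run, 1 (2.78%) was higher in Cd and 6 (16.7%) lower, with a median of 0.0. The higher one was slc40a1, for the iron exporter ferroportin (0.30 ± 0.05, adjusted p = 0.00734). The lower ones included tfa, for the iron carrier transferrin (-0.65 ± 0.07, adjusted p = 0.000342), tfr2, for a transferrin receptor (-1.26 ± 0.24, adjusted p = 0.0128), and cp, for the copper protein ceruloplasmin (-0.67 ± 0.09, adjusted p = 0.00121). The hepatocyte list, described below, holds tfa as well. Metallothionein, the thiol-rich protein that binds cadmium and zinc, was measured through mt2. It had 6.866, 19.33, 6.704 and 9.385 CPM in Cd libraries, against 3.47, 4.593, 6.459 and 3.07 CPM in PCB126 libraries. Every Cd library lay above every PCB126 library, but Cd replicate 2 was far above the other Cd libraries, and the log2 fold change of 1.25 ± 0.35 was not called (adjusted p = 0.0783). The zinc exporter gene slc30a1a was not called either (0.28 ± 0.08, adjusted p = 0.0943).

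Heat shock proteins refold or clear damaged proteins. Of 34 tested chaperone genes 5 (14.7%) were higher in Cd and 0 were lower, with a list median of 0.2. The inducible hsp70.3 had 29.99, 21.82, 34.12 and 22.38 CPM in Cd libraries and 4.761, 5.795, 6.885 and 5.628 CPM in PCB126 libraries. All Cd libraries lay above the control range of 7.058 to 16.25 CPM and all PCB126 libraries below it (log2 fold change 2.23 ± 0.17, adjusted p = 2.13e-05). The other members called were hsp70.1 (1.68 ± 0.36, adjusted p = 0.0207), hsp70l (1.08 ± 0.19, adjusted p = 0.00807), hsp90aa1.2 (1.01 ± 0.08, adjusted p = 3.64e-05) and hsp70.2, with 16.75, 16.92, 19.51 and 12.2 CPM in Cd libraries and 4.115, 5.583, 5.679 and 6.067 CPM in PCB126 libraries (adjusted p = 0.000205). The hsp70 genes are near-identical copies whose reads may have been divided unevenly. The call of hsp70.1 was lost without Cd replicate 1 or 3 or PCB126 replicate 2, with an adjusted p of up to 0.0709.

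Immediate early genes are switched on within minutes by many stimuli. On this list of 43 tested genes, 11 (25.6%) were higher in Cd and 2 (4.65%) lower, with a median of 0.23. The control median lay nearer the Cd level in 7 of the 11 and nearer the PCB126 level in 4. The orphan nuclear receptor gene nr4a3 led, with 61.87, 87.43, 66.44 and 65.77 CPM in Cd libraries and 18.88, 18.51, 22.08 and 23.54 CPM in PCB126 libraries. PCB126 libraries were at about the control range of 17.41 to 22.73 CPM and Cd libraries above it (log2 fold change 1.76 ± 0.12, adjusted p = 8.24e-06). Its relative nr4a1 had 50.87, 73.74, 48.39 and 46.86 CPM in Cd libraries, against 25.18, 22.4, 25.06 and 24.63 CPM in PCB126 libraries (1.18 ± 0.13, adjusted p = 0.000522). For nr4a1 the control range was 40.13 to 57.6 CPM, so PCB126 libraries lay below it. Transcription factor genes npas4a (1.01 ± 0.10, adjusted p = 0.000209), egr4 (0.78 ± 0.12, adjusted p = 0.00259), fosab (0.82 ± 0.13, adjusted p = 0.00444) and jun (0.53 ± 0.10, adjusted p = 0.0099) were higher in Cd. The lower ones were klf2b (-0.83 ± 0.07, adjusted p = 2.78e-05), for a flow-responsive transcription factor, and ctgfb (-0.91 ± 0.13, adjusted p = 0.00178), for a matrix growth factor.

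The balance of calcium and phosphate is set by hormones such as stanniocalcin, Fgf23 and vitamin D. Of 36 tested genes of this system 8 (22.2%) were lower in Cd, 3 (8.33%) were higher and the others were not called, with a median of -0.18 and, without PCB126 replicate 4, of -0.07. Unlike most genes lower in Cd, 7 of these 8 had a control median nearer the PCB126 level. The largest difference was in stc1l, a gene related to stanniocalcin, the hormone by which fish limit calcium uptake. It had 2, 1, 1 and 2 counts in Cd libraries, against 60, 79, 75 and 52 counts in PCB126 libraries, which is 0.06637 to 0.1444 CPM against 3.801 to 5.583 CPM. PCB126 libraries overlapped the control range of 3.469 to 10.5 CPM and Cd libraries were far below it, with a log2 fold change of -5.42 ± 0.31 (adjusted p = 2.33e-06). With so few counts in Cd libraries, this SE may be too small. The phosphate-wasting hormone gene fgf23 had 10 counts over the Cd libraries and 74 over the PCB126 libraries, a log2 fold change of -2.89 ± 0.44 (adjusted p = 0.00324). For cyp27b1, the enzyme that makes active vitamin D, Cd libraries had 6.656, 6.444, 10.49 and 9.458 CPM and PCB126 libraries 27.84, 30.46, 27.12 and 33.26 CPM. The control libraries spread from 4.564 to 22.89 CPM, below every PCB126 library (log2 fold change -1.84 ± 0.15, adjusted p = 3.56e-05). The vitamin D carrier gene gc was lower by 0.53 ± 0.07 (adjusted p = 0.00139). The sodium-phosphate cotransporter genes slc34a2a (0.80 ± 0.12, adjusted p = 0.00277) and slc34a2b (0.91 ± 0.14, adjusted p = 0.00277) were higher. The epithelial calcium channel gene trpv6 was not called (0.26 ± 0.13, adjusted p = 0.318).

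Ionocytes are the skin and gill cells that exchange ions and ammonia with water. Of 50 tested genes of ion transport, 7 (14%) were higher in Cd and 4 (8%) lower, and the lower count was 1 without Cd replicate 1, 3 or 4 or PCB126 replicate 2 or 3. The ammonia transporter gene rhcga had 111.6, 137.1, 100.6 and 137.5 CPM in Cd libraries and 40.43, 41.2, 43.37 and 42.32 CPM in PCB126 libraries. The controls lay between, at 66.45 to 92.68 CPM, and the log2 fold change was 1.54 ± 0.10 (adjusted p = 5.34e-06). Its relative rhcgl1 went the other way, with 13.24, 19.7, 11.75 and 22.45 CPM in Cd libraries and 45.43, 45.01, 40.67 and 39.47 CPM in PCB126 libraries (-1.35 ± 0.17, adjusted p = 0.00108). The chloride channel gene clcn2c (0.77 ± 0.09, adjusted p = 0.000596) and the carbonic anhydrase gene ca15a (0.89 ± 0.12, adjusted p = 0.00139) were higher in Cd.

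Cartilage forms the larval jaw and head skeleton before bone does. Of 42 tested cartilage and bone genes, 17 (40.5%) were higher in Cd, against 2.17% of all genes, and 2 (4.76%) lower, with a list median of 0.39. The control median lay nearer the Cd level in 15 of the 17. In whole larvae, fewer cells of a type and less RNA per cell cannot be told apart. The main cartilage collagen gene col2a1a had 1343, 1401, 1249 and 1358 CPM in Cd libraries, against 728.3, 974.5, 900 and 934.7 CPM in PCB126 libraries. Cd libraries were around the control range of 1218 to 1346 CPM and PCB126 libraries below it (log2 fold change 0.60 ± 0.08, adjusted p = 0.00178). The aggrecan gene acana, for the main cartilage proteoglycan, had 64.53, 69.56, 66.44 and 70.61 CPM in Cd libraries and 46.48, 44.38, 43.37 and 46.27 CPM in PCB126 libraries (0.59 ± 0.05, adjusted p = 0.000101). Other members were the fibril-associated collagen genes col9a2 (0.67 ± 0.11, adjusted p = 0.00412) and col9a3 (0.61 ± 0.09, adjusted p = 0.00248), col10a1a of maturing cartilage and bone cells (0.58 ± 0.07, adjusted p = 0.00076), the link protein gene hapln1a (0.56 ± 0.07, adjusted p = 0.000801) and the proteoglycan gene epyc (0.55 ± 0.06, adjusted p = 0.000269). The sox9b paralogue sox9a was not called (0.06 ± 0.06, adjusted p = 0.681). The bone matrix gene spp1, for osteopontin, was lower in Cd (-0.93 ± 0.11, adjusted p = 0.000677). PCB126 replicate 4 had a list sum of 12230 CPM, the highest of its group, against a group low of 8849 CPM and 12790 to 14320 CPM in Cd libraries. Without it, 22 members were higher in Cd and 2 lower. Without PCB126 replicate 2, 12 members were higher.

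Of 61 other collagen and matrix genes tested, 9 (14.8%) were higher in Cd and 2 (3.28%) lower, and the higher count was 18 without PCB126 replicate 4 and 5 without Cd replicate 1. The matricellular gene postna, for periostin, had 99.84, 105.2, 101.7 and 98.33 CPM in Cd libraries and 57.86, 52.01, 54.66 and 64.76 CPM in PCB126 libraries. No PCB126 library reached the control range of 83.82 to 90.91 CPM (log2 fold change 0.82 ± 0.07, adjusted p = 4.1e-05). The crosslinking enzyme gene loxl5b (1.63 ± 0.24, adjusted p = 0.00277), the hyaluronan synthase gene has2 (1.32 ± 0.25, adjusted p = 0.0104) and the elastin gene elnb (0.74 ± 0.08, adjusted p = 0.000275) were also higher.

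**Figure D3:**
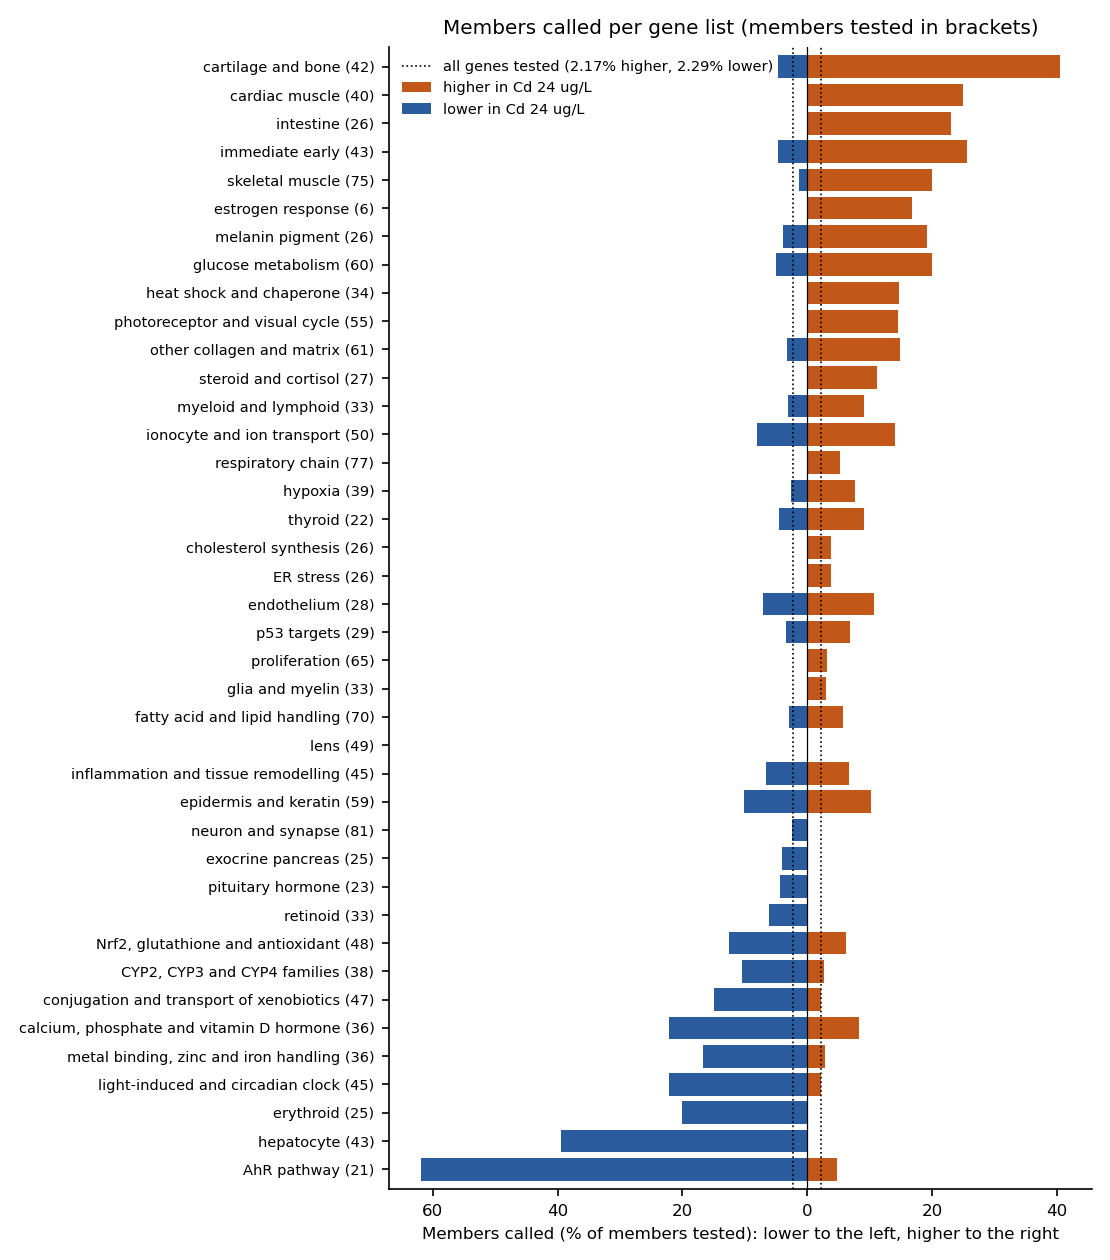
For each gene list, the percent of its tested members called lower (bars to the left) and higher (bars to the right) in Cd 24 ug/L than in PCB126 0.8 nM. Lists were chosen with earlier results of these data known. Dotted lines mark the shares over all genes tested, 2.29% lower and 2.17% higher; the AhR list reaches 61.9% lower, hepatocyte genes 39.5% lower, and cartilage and bone genes 40.5% higher.

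Hepatocyte genes encode mostly secreted plasma proteins. Of 43 tested, 17 (39.5%) were lower in Cd and 0 higher, with a median of -0.33. The transferrin gene tfa had 1720, 1704, 1621 and 1548 CPM in Cd libraries and 2741, 2485, 2290 and 2801 CPM in PCB126 libraries. Cd libraries were below the control range of 1786 to 2994 CPM and PCB126 libraries inside it, but the control median lay nearer the Cd level. The fetuin gene ahsg1 (-1.17 ± 0.14, adjusted p = 0.000722), the complement genes c3a.3 (-1.07 ± 0.18, adjusted p = 0.00513) and c3a.1 (-0.64 ± 0.12, adjusted p = 0.00983) and the haptoglobin gene hp (-0.45 ± 0.07, adjusted p = 0.00384) were lower. Their relative c3a.4, not counted in this list, was higher in Cd (log2 fold change 2.21, adjusted p = 0.0073). The apolipoprotein gene apoa2 had 2168, 2193, 2331 and 2262 CPM in Cd libraries, against 2844, 3139, 2938 and 3725 CPM in PCB126 libraries (-0.50 ± 0.08, adjusted p = 0.00424). The liver fatty acid binding protein gene fabp10a, a defining hepatocyte marker, was not called (-0.12 ± 0.06, adjusted p = 0.295). The control median was nearer Cd in 12 of the 17 and nearer PCB126 in 5. The list sum was 16440 to 17420 CPM in Cd and 19500 to 22510 CPM in PCB126, with PCB126 replicate 4 the highest, and without that library 17 members were lower and 1 higher.

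Red blood cell genes were lower in Cd in 5 of 25 tested (20%) and higher in 0, with a median of -0.41. Among them were the haemoglobin gene hbae3, with 324.8, 408.2, 335.7 and 349.2 CPM in Cd libraries and 462.1, 459.7, 592.8 and 592.5 CPM in PCB126 libraries (-0.57 ± 0.10, adjusted p = 0.00813), and the carbonic anhydrase gene cahz (-0.44 ± 0.07, adjusted p = 0.00587). Globin genes are near-copies whose reads may be divided unevenly. The highest control library, at 1355 CPM of hbae3, lay above both groups, and the control median was nearer PCB126 in 3 of the 5 and nearer Cd in 2.

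Muscle genes were covered by a heart list and a skeletal list. In the heart list 10 of 40 tested genes (25%) were higher in Cd and 0 lower, with a median of 0.26, and the control median was nearer Cd in 8 of the 10. The cardiac myosin heavy chain gene myh7 had 137, 137.8, 134 and 138.4 CPM in Cd libraries, against 81.91, 81.27, 81.91 and 86.11 CPM in PCB126 libraries. No PCB126 library reached the control range of 115.7 to 164.1 CPM (log2 fold change 0.72 ± 0.05, adjusted p = 4.57e-06). The heart light chain genes myl7 (0.59 ± 0.08, adjusted p = 0.00194) and cmlc1 (0.75 ± 0.09, adjusted p = 0.000677), the calcium pump gene atp2a2a (0.74 ± 0.07, adjusted p = 7.98e-05) and the natriuretic peptide gene nppa (0.88 ± 0.14, adjusted p = 0.00336) were higher too. In the skeletal muscle list 15 of 75 (20%) were higher and 1 (1.33%) lower, with a median of 0.16. That higher count was 10 without PCB126 replicate 2 and 20 without PCB126 replicate 4. The actin gene acta1b had 1918, 1933, 2003 and 2145 CPM in Cd libraries and 1192, 1400, 1240 and 1219 CPM in PCB126 libraries, against 1499 to 2815 CPM in controls (0.66 ± 0.06, adjusted p = 0.000127). Myosin-binding protein genes mybpc1 (0.57 ± 0.06, adjusted p = 0.00024) and mybpc2b (0.76 ± 0.06, adjusted p = 4.3e-05) were higher, and myog, for the regulator myogenin, was lower (-0.71 ± 0.12, adjusted p = 0.00587).

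Glucose and glycogen metabolism differed in 15 of 60 tested genes, with 12 (20%) higher in Cd and 3 (5%) lower, and a list median of 0.1. The lower count was 1 without Cd replicate 1 or 3 or PCB126 replicate 1 or 3. The control median was nearer PCB126 in 11 of the 12. The muscle phosphofructokinase gene pfkma, for the enzyme that commits glucose to glycolysis, had 171.1, 223.1, 177.7 and 165.5 CPM in Cd libraries and 70.45, 90.31, 84.04 and 87.57 CPM in PCB126 libraries. Cd libraries were above the control range of 59.67 to 82.06 CPM (log2 fold change 1.15 ± 0.10, adjusted p = 7.53e-05). Also higher were gpib, for phosphoglucose isomerase (0.88 ± 0.10, adjusted p = 0.000534), pgam2, for muscle phosphoglycerate mutase (0.77 ± 0.10, adjusted p = 0.0014), aldoaa, for aldolase (0.65 ± 0.12, adjusted p = 0.00976), gys1, for muscle glycogen synthase (0.63 ± 0.08, adjusted p = 0.000825), and pdk2b, for a kinase that restrains pyruvate oxidation (0.90 ± 0.14, adjusted p = 0.00435). Several of these enzymes are made mainly in muscle, and pgam2 is on the muscle list as well. The liver glycogen phosphorylase gene pygl had 116.2, 135.4, 129.5 and 108.8 CPM in Cd libraries, against 251.4, 237.8, 257.6 and 312.3 CPM in PCB126 libraries. PCB126 libraries lay above the control range of 107.8 to 185.3 CPM (-1.11 ± 0.09, adjusted p = 4.25e-05). The gluconeogenesis gene pck1 was not called (0.06 ± 0.14, adjusted p = 0.881), and gck, for glucokinase, had 8.198, 6.956, 9.027 and 18.84 CPM in Cd libraries and 5.971, 6.643, 8.447 and 22.29 CPM in PCB126 libraries. In both groups replicate 4 was the highest for gck, and the groups overlapped (-0.01 ± 0.43, adjusted p = 0.992).

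Of 55 tested photoreceptor and visual cycle genes 8 (14.5%) were higher in Cd and 0 lower, and all 8 had a control median nearer Cd. The rod opsin gene rho had 2985, 2734, 2642 and 3070 CPM in Cd libraries and 1858, 1787, 1963 and 2093 CPM in PCB126 libraries (0.57 ± 0.07, adjusted p = 0.000694). Cone opsin genes opn1sw1 (0.34 ± 0.05, adjusted p = 0.00437) and opn1sw2 (0.48 ± 0.06, adjusted p = 0.00131) and the rod transducin gene gnat1 (0.51 ± 0.06, adjusted p = 0.000807) were higher by less than 2-fold. Of 49 lens genes 0 were called by edgeR and 0 by DESeq2, and 5 were called higher by edgeR without PCB126 replicate 4. With all 8 libraries, 8 of the 49 had an unadjusted p below 0.05 in edgeR, a share close to that of all genes tested (4272 of 24054).

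Light sets the fish clock by inducing clock and DNA repair genes. In the list of light-induced and circadian clock genes 10 of 45 (22.2%) were lower in Cd and 1 (2.22%) higher, with a median of -0.12. The clock gene per2, which light induces in fish, had 189.7, 200.9, 202.8 and 186.6 CPM in Cd libraries and 292.4, 301.1, 309.6 and 322.6 CPM in PCB126 libraries (-0.65 ± 0.05, adjusted p = 2.92e-05). Both groups were far above the control range of 24.28 to 28.06 CPM. The photolyase-related gene cry5 (-0.99 ± 0.10, adjusted p = 0.00026), cry-dash (-0.69 ± 0.05, adjusted p = 2.21e-05) and lonrf1l (-0.61 ± 0.05, adjusted p = 2.72e-05) were lower as well, and the clock repressor gene nr1d2a was higher (0.52 ± 0.07, adjusted p = 0.00161). No label gives the clock time or order of collection, so chemical and time of collection cannot be told apart for these genes or for the immediate early genes.

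Endocrine genes are the subject that the title of the series names. Of 27 steroid and cortisol genes 3 were higher in Cd, a larger share than the 2.17% of all genes, and 0 lower. The cortisol-inactivating enzyme gene hsd11b2 had 42.39, 45.03, 40.35 and 37.18 CPM in Cd libraries and 14.44, 18.73, 17.32 and 17.54 CPM in PCB126 libraries. The controls, at 25.01 to 31.45 CPM, lay between (log2 fold change 1.28 ± 0.09, adjusted p = 1.51e-05). The receptor cochaperone gene fkbp5, which glucocorticoids induce, had 428.7, 476.7, 377.5 and 392.9 CPM in Cd libraries, against 169.3, 276.9, 265.3 and 247.8 CPM in PCB126 libraries (0.80 ± 0.13, adjusted p = 0.00527). Of 22 thyroid genes, 2 (9.09%) were higher and 1 (4.55%) lower, the last being dio1, for the deiodinase that processes thyroid hormone (-0.97 ± 0.16, adjusted p = 0.00539). The higher thyroid count was 1 without Cd replicate 1, 2 or 4 or PCB126 replicate 1, 2 or 3. The estrogen-responsive yolk gene vtg1 was below the filter, with 2 counts over each group.

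Pigment cell genes were higher in Cd in 5 of 26 tested (19.2%) and lower in 1 (3.85%). The melanin synthesis genes dct (0.91 ± 0.13, adjusted p = 0.00178) and tyrp1a (0.89 ± 0.14, adjusted p = 0.00436) and the melanosome gene pmela (0.52 ± 0.09, adjusted p = 0.00641) were among them, and in 4 of the 5 the control median was nearer PCB126. Of 26 intestinal genes 6 (23.1%) were higher (9 without PCB126 replicate 4) and 0 lower, led by the amino acid transporter gene slc6a19a.1 (0.75 ± 0.09, adjusted p = 0.000677). The higher intestinal count was 4 without PCB126 replicate 2. Epidermal genes split evenly, with 6 of 59 higher, such as the keratin gene krt94 (0.95 ± 0.08, adjusted p = 3.33e-05), and 6 lower, such as krt91 (-0.40 ± 0.08, adjusted p = 0.0118). Neuronal genes were near the background, with 2 of 81 (2.47%) lower and 0 higher. Of 77 respiratory chain genes 4 (5.19%) and of 65 proliferation genes 2 (3.08%) were higher, counts that became 23 and 9 without PCB126 replicate 4. The respiratory chain count was 0 without Cd replicate 2 or PCB126 replicate 2.

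Some of the larger differences fell outside the lists above. Higher in Cd were fhl5, for a LIM-domain protein, with 12.82, 10.76, 14.73 and 13.28 CPM in Cd libraries and 4.438, 3.675, 3.123 and 3.216 CPM in PCB126 libraries (1.84 ± 0.15, adjusted p = 3.49e-05), and the glycogen phosphorylase kinase gene phka1b (1.36 ± 0.22, adjusted p = 0.00454). PCB126 libraries of fhl5 were below the control range of 11.83 to 21.81 CPM. The call of pbld2 (2.39 ± 0.52, adjusted p = 0.023) was lost in 6 of the 8 fits that left out a library, with an adjusted p of up to 0.0729, the exceptions being those without Cd replicate 2 or 4. Lower in Cd were the hormone gene fgf19, which limits bile acid synthesis, with 0.9109, 0.659, 0.5974 and 0.5776 CPM in Cd libraries and 5.165, 3.463, 3.123 and 1.974 CPM in PCB126 libraries (-2.30 ± 0.33, adjusted p = 0.00206), mamdc2b (-2.03 ± 0.15, adjusted p = 1.51e-05) and the chemokine receptor gene ccr9a (-1.81 ± 0.17, adjusted p = 0.000111). On the hypoxia list, the oxygen sensor gene egln1a, for a prolyl hydroxylase, was lower by 1.66 ± 0.22 (adjusted p = 0.00134). Loci without an Ensembl identifier made up 138 of the 1071 called genes and 4760 of the genes tested, and are not described further because nothing in the sources used here annotates them.

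The middle doses, Cd 12 ug/L and PCB126 0.4 nM, gave the same contrast in 8 other libraries. There 579 of 24269 genes (2.39%) were called, 312 (1.29%) higher in Cd and 267 (1.1%) lower. Of the 1071 genes called at the top doses, 1063 were also tested at the middle doses. The sign was the same in 953 of them, and in 859 of these the difference was smaller than at the top doses. Picking genes by a call at the top doses favours larger sizes there, so the 859 say nothing about dose. How often signs match over all genes tested was not counted. In 304 of the 1063 the gene was called in the same direction, which is 28.4% of the top-dose list and 52.5% of the middle-dose list. One gene, irf1b, for an interferon regulatory factor, was called in opposite directions, at -0.92 ± 0.23 for the top doses (adjusted p = 0.0468) and 1.26 for the middle doses (adjusted p = 0.000776), and its top-dose call held in 2 of the 8 fits that left out a library.

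**Figure D4:**
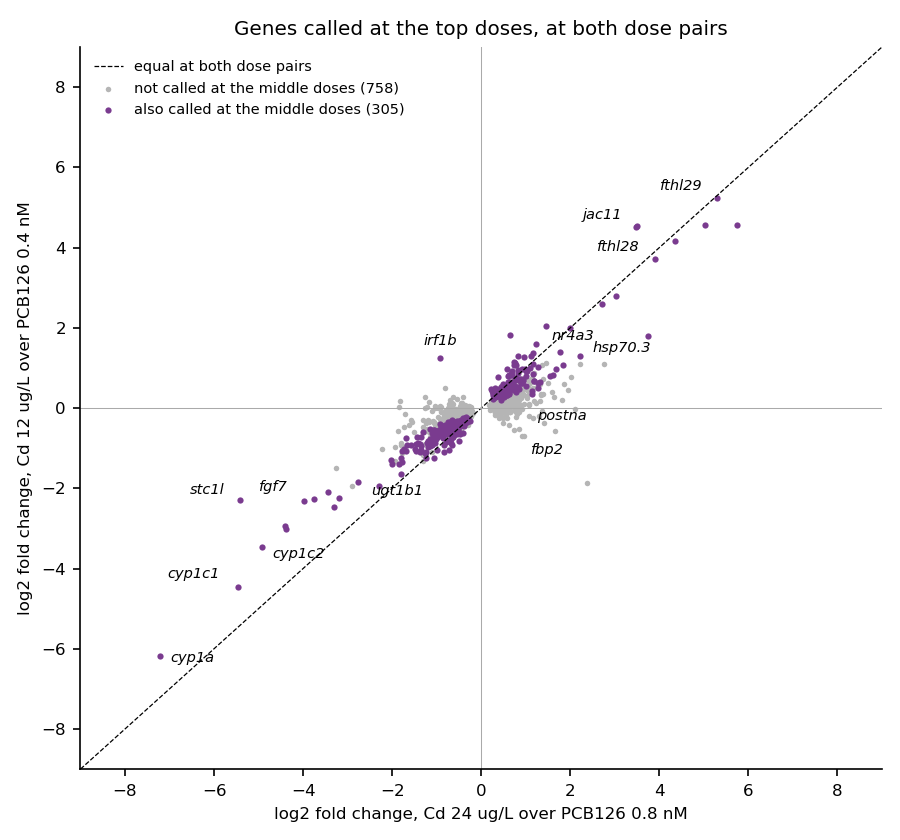
Log2 fold change, Cd over PCB126, at the top doses (24 ug/L over 0.8 nM, x axis) against the middle doses (12 ug/L over 0.4 nM, y axis), for the genes called at the top doses and tested at both. Purple points mark genes called at both, grey points those called at the top doses alone, and the dashed line marks equal size; 953 of 1063 genes have the same sign.

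At the middle doses 1.29% of all genes tested were called higher in Cd and 1.1% lower. List counts there are set beside these shares. In the AhR list 12 of 21 genes were lower and 1 higher, close to the top-dose counts, with a median of -0.71. Hepatocyte genes were lower in 15 of 43, heart genes higher in 9 of 40 and immediate early genes higher in 14 of 43. Of the hepatocyte list genes named above, tfa, apoa2, c3a.1 and c3a.3 were called lower there. The genes ahsg1 and hp were not called there, at log2 fold changes of 0.14 and 0.01. Cartilage and bone genes were higher in 2 of 43 and lower in 1, with a median of 0.03. Photoreceptor genes were called in 0 of 55 and pigment cell genes in 0 of 26. Intestinal genes were higher in 0 of 26 and lower in 1. Ion transport genes were higher in 1 of 50 and lower in 2. Other collagen and matrix genes were higher in 1 of 61 and lower in 2. Whether the lists' counts differ between doses was not tested.

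The difference between the top-dose and middle-dose contrasts was tested gene by gene over the 16 libraries. It was called in 21 of 24902 genes (0.0843%), 6 (0.0241%) above 0 and 15 (0.0602%) below, and 14 of the 21 had the same sign at both doses and a larger size at the top. Among these were cyp1a, with log2 fold changes of -7.22 and -6.17 at the top and middle doses (difference -1.04, adjusted p = 0.00107), cyp1c1 (difference -1.01, adjusted p = 0.000781) and cyp1c2 (difference -1.43, adjusted p = 0.00533). The difference was -1.65 for fgf7 (adjusted p = 0.0376), -0.90 for ugt1b1 (adjusted p = 0.00472) and -0.69 for tiparp (adjusted p = 0.0298). Above 0 were postna, at 0.82 for the top doses and 0.01 for the middle doses (difference 0.82, adjusted p = 0.000781), and pfkma, at 1.15 and 0.35 (difference 0.81, adjusted p = 0.0219). The count was 173 without PCB126 0.8 nM replicate 4, a set that held all 21, 12 without Cd 12 ug/L replicate 2, Cd 12 ug/L replicate 4 or Cd 24 ug/L replicate 3, and 13 without PCB126 0.8 nM replicate 2.

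Levels across all doses, scaled over the 28 libraries, are set beside the control level, and the differences from it were not tested. Median cyp1a was 45.84, 43.26 and 43.81 CPM at Cd 2.4, 12 and 24 ug/L and 519.3, 3296 and 6572 CPM at PCB126 0.08, 0.4 and 0.8 nM, with 41.65 CPM in controls. The control median lay close to all 3 Cd medians, and the PCB126 medians were ordered by dose with no overlap between neighbouring doses. Median stc1l was 4.621, 0.5879 and 0.1029 CPM across the Cd doses and 4.615, 4.276 and 4.906 CPM across the PCB126 doses, with 4.316 CPM in controls. Here the Cd doses were the ones that differed in level. Median fthl29 was 114.7, 175.8 and 201.1 CPM across the Cd doses and 9.136, 5.133 and 5.01 CPM across the PCB126 doses, with 20.96 CPM in controls, so the 2 series lay on opposite sides of the control median. Both series lay above it for per2, at 78.47, 145 and 188.4 CPM across the Cd doses and 214.9, 261.7 and 294.2 CPM across the PCB126 doses, with 26.94 CPM in controls. Median sox9b was 41.24, 38.8 and 38.69 CPM across the Cd doses and 39.98, 23.99 and 15.86 CPM across the PCB126 doses, with 43.46 CPM in controls.

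**Figure D5:**
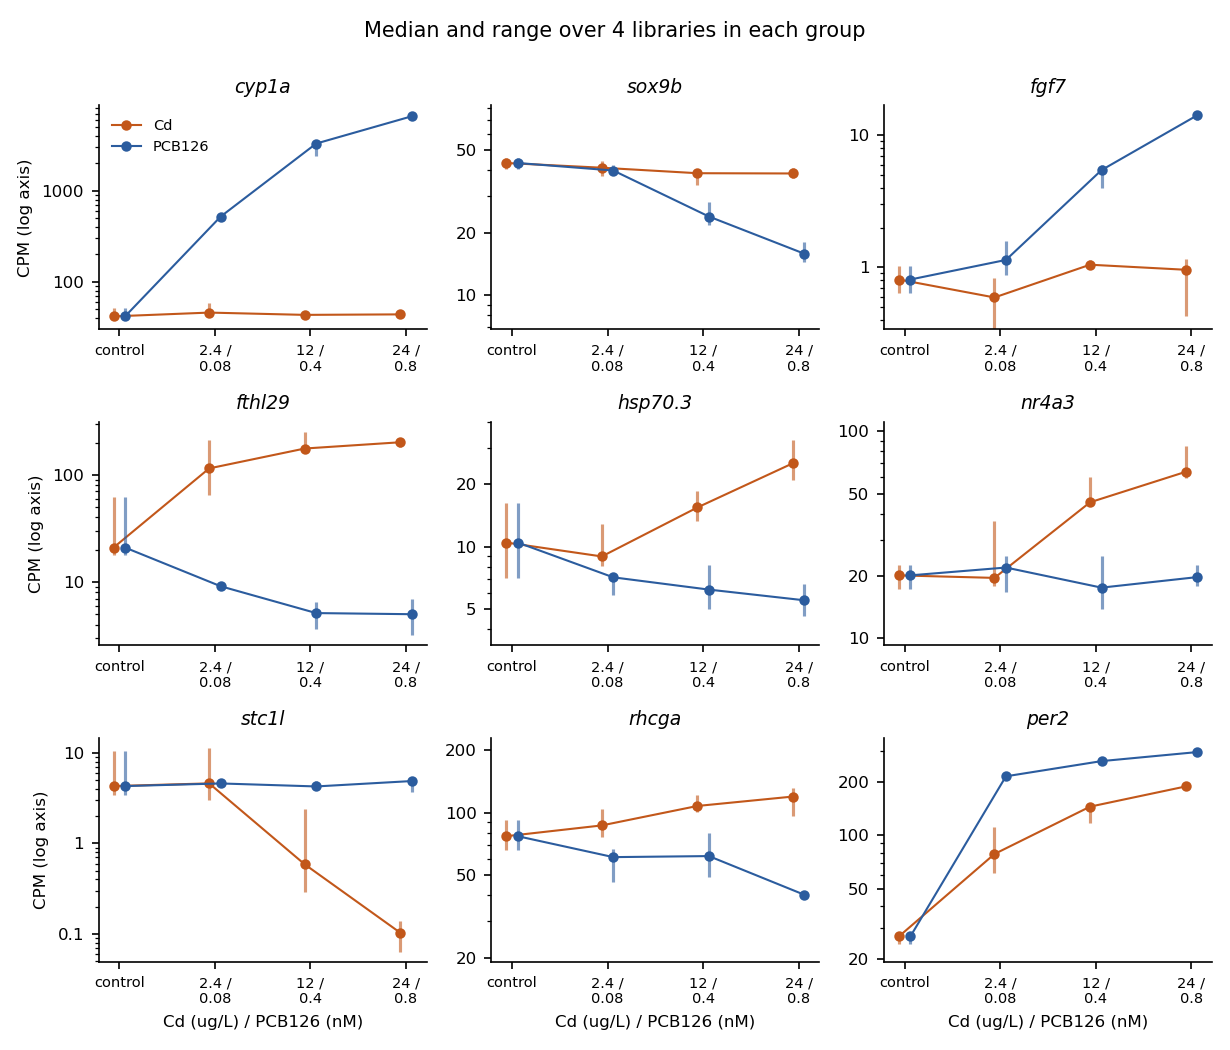
Median CPM (points) and range over 4 libraries (bars) of 9 genes by dose, with the control at the low end and doses in order, on a log axis. Cd and PCB126 doses are in ug/L and nM and are not matched; cyp1a reaches 6572 CPM at PCB126 0.8 nM and stc1l 0.1029 CPM at Cd 24 ug/L, and the bar of fgf7 at Cd 2.4 ug/L runs off the axis to 0.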

How the data were processed

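Per the labels, polyadenylated RNA of whole larvae was sequenced. The deposited table holds raw counts of reads per gene for 38318 genes, made by the authors with tools that include HISAT2 2.0.5 and featureCounts 1.5.0-p3 on GRCz11, per the submitters' processing notes. The annotation release is not given in the sources used here. Since the labels mention second-strand synthesis both with and without strand marking, overlapping and antisense genes cannot be told apart by strand. The deposited TPM table, scaled by the authors for gene length and depth per the file headers, served an alternative only, with a pseudocount of 1. The deposited gene lengths, in bases (unit other), described library composition. All per-sample columns were mapped.

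Counts were tested with edgeR 4.0.16 (limma 3.58.1, R 4.3.3): filterByExpr by group, then TMM factors and a two-sided quasi-likelihood test (glmQLFit, glmQLFTest). Adjustment after Benjamini and Hochberg covered all 24054 genes that passed (99.84% of counts). The fit held the 8 top-dose libraries and no covariate, with 6 residual degrees of freedom. Fold changes are Cd over PCB126. Fold-change errors are SE, CPM errors SD. The SE was not estimated directly: it is the absolute log2 fold change divided by the square root of the test's F statistic. For genes with few counts, such as stc1l and fgf23, it may be smaller than counting error allows. CPM of the 8 libraries used TMM factors over those 8, and CPM of controls and other doses used factors over all 28, so the scales differ slightly. Intervals and floors (3 counts) cover counting error only. DESeq2 1.42.0, other filters, other sample sets, a term for replicate number and single libraries left out were alternatives.

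Within each group, pairs of libraries differed by more than sampling noise. Nothing says whether they came from separate clutches or dishes, so p-values measure only the spread between these samples. The rule named the 15 largest differences in each direction among genes that were called, averaged at least 1 on the log2 CPM scale, had a symbol other than a clone name and had non-overlapping groups; up to 4 called members of each of 40 gene lists, and a set of genes whatever their values. Genes outside it, such as the chromosome 3 ferritin run, cyb5a, fgf23 and some list members, were chosen after their values were seen. Of 1896 list symbols, 1750 matched the deposited names and 33 the gene name table. Comparison, members and lists were chosen with earlier results of these data known. Of the AhR genes, cyp19a1b matched no symbol.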

Additional observations from a re-analysis of the deposited data

Results flagged for a closer look

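In 296 groups of 4 libraries (148 named genes in 2 groups), 13 held a library whose distance to the nearest other library passed the 95% critical value of Dixon's test. Chance gives about 1 such group in 20. Cd replicate 2 was the one apart in 5 of the 13, PCB126 replicate 4 in 3, Cd replicate 4 in 2, and Cd replicate 3, PCB126 replicate 1 and PCB126 replicate 3 in 1 each. In Cd replicate 2 the values were 3.3 CPM of ccr9a, 194 CPM of epyc, 95.0 CPM of gpib, 153 CPM of pgam2 and 73.7 CPM of nr4a1, all above the rest. In PCB126 replicate 4 they were 5750 CPM of apoa1b, 86.1 CPM of myh7 and 22.3 CPM of gck, again above the rest. Cd replicate 4 was high in cry5, at 16.2 CPM, and krt1-19d, at 168 CPM. PCB126 replicate 3 was high in foxq1a, at 121 CPM. Cd replicate 3 was low in tyrp1a, at 8.76 CPM, and PCB126 replicate 1 was low in klf9, at 60.9 CPM. Of these genes, klf9 lost its call without 1 library, Cd replicate 2 (adjusted p = 0.0533).

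In 9 named genes the contrast at the top doses differed from that at the middle doses (edgeR quasi-likelihood test of the difference of differences, adjusted over 24902 genes). The difference on the log2 scale was -1.04 for cyp1a, -1.01 for cyp1c1, -1.43 for cyp1c2, -1.65 for fgf7, -0.90 for ugt1b1, -0.69 for tiparp (adjusted p = 0.0298) and -0.66 for cyp3a65 (adjusted p = 0.0394). It was 0.81 for pfkma and 0.82 for postna. The cause was not tested.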

How the results depend on the processing

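The count of 1071 genes at the top doses stayed within 1.5 times under DESeq2 (1421), without a filter (1065), with DESeq2 size factors (1074), a mean of at least 10 counts (1073), limma on log2(TPM + 1) (1045) and, chosen after seeing the data, annotated genes only (1102). It was 443 in a model of all 28 libraries (187 higher, 256 lower), which shares 1 estimate of spread, and 1683 (886 higher) without control replicate 4 and Cd 2.4 ug/L replicate 3; the cause was not tested. With a fold of at least 1.5 it was 511 (238 higher, 273 lower). Leaving out 1 library gave 742 to 1393 (324 to 768 higher, 398 to 625 lower). At the middle doses DESeq2 called 993 (519 higher, 474 lower), and leaving out 1 library gave 341 to 544 (186 to 316 higher, 151 to 242 lower). Counts fell most without Cd 12 ug/L replicate 2 (344, with 193 higher and 151 lower) or 4 (341, with 186 and 155). Without PCB126 0.4 nM replicate 2 they were 379, with 161 lower, and without replicate 1 171 were lower. The difference of differences was called in 157 genes by DESeq2, 5 in the model of 28 libraries and 12 to 173 when 1 library was left out.

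Over all genes tested, same-numbered Cd and PCB126 libraries did not deviate together, with correlations of -0.04, -0.011, -0.043 and -0.052. Nothing says what the numbers mark, and such correlations cannot exclude a shared clutch or day. With the replicate block 698 genes were called at the top doses (330 higher, 368 lower), 282 at the middle doses (160 higher, 122 lower) and 20 for the difference of differences; 18 of 148 named genes lost their call.

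Of 140 named genes called, 88 were called in the same direction in every alternative and 114 without any single library. Signs changed in 3 genes that were not called. The log2 fold change of fth1a was 0.02, 0.0, 0.01 and 0.02 without Cd replicate 1, Cd replicate 3, PCB126 replicate 3 and PCB126 replicate 4. That of gck was 0.06 with limma, 0.07 with the block, 0.09, 0.14 and 0.06 without Cd replicate 1, 2 and 3, and 0.61 without PCB126 replicate 4, in a range from -0.43 to 0.61 when 1 library was left out. That of pck1 was -0.01 without Cd replicate 2 and -0.08 without PCB126 replicate 1, in a range up to 0.16. List counts without single libraries, given beside the lists, were also chosen after seeing the data. Depth limits stc1l, fgf23 and ahrrb, with few counts in Cd libraries, and the 4 libraries a group limit small differences. In edgeR's test 4272 genes had an unadjusted p below 0.05, a count that includes the called genes and some that chance alone gives. How many differences were missed was not estimated.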

Other observations

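Values here are log2 fold changes of Cd 24 ug/L over PCB126 0.8 nM with their SE (n = 4 each) and adjusted p from edgeR's quasi-likelihood test. Of 28 tested endothelial genes, 3 (10.7%) were higher in Cd and 2 (7.14%) lower. The scavenger receptor genes stab1 (0.78 ± 0.12, adjusted p = 0.00357) and mrc1a (0.68 ± 0.11, adjusted p = 0.00348), which mark lymphatic and scavenging endothelium in zebrafish, were higher in Cd, and the clotting protein gene vwf (-1.01 ± 0.14, adjusted p = 0.00177) was lower. Of 33 immune cell genes 3 (9.09%) were higher, among them the receptor gene havcr1 (1.18 ± 0.23, adjusted p = 0.0141), and 1 (3.03%) was lower, runx3 (-0.49 ± 0.09, adjusted p = 0.00787). Inflammation and tissue remodelling genes were split evenly, with 3 of 45 (6.67%) higher, such as the chemokine gene cxcl8b.3 (1.05 ± 0.20, adjusted p = 0.0102), and 3 lower. Of 29 p53 target genes 2 (6.9%) were higher, among them the growth arrest gene btg2 (0.91 ± 0.14, adjusted p = 0.00323), and 1 (3.45%) was lower, the DNA repair gene xpc (-0.85 ± 0.10, adjusted p = 0.000703). The light and clock list also holds xpc, the immediate early list btg2, and the cartilage and bone list runx3. When 1 library was left out, the higher count ran from 1 to 5 for immune cell genes and from 1 to 3 for inflammation and tissue remodelling, whose lower count ran from 1 to 5. Among all genes tested 2.17% were called higher in Cd and 2.29% lower.

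In lipid handling 4 of 70 (5.71%) were higher and 2 (2.86%) lower, in the hypoxia list 3 of 39 (7.69%) higher and 1 (2.56%) lower, which is egln1a, and in the retinoid list 2 of 33 (6.06%) lower. Without PCB126 replicate 4, lipid handling had 7 higher and 1 lower and hypoxia 4 higher and 3 lower, and lipid handling had 1 higher without Cd replicate 3 or PCB126 replicate 1 or 2. A single gene was higher in ER stress (3.85% of 26 tested), cholesterol synthesis (3.85% of 26), glia and myelin (3.03% of 33) and estrogen response (16.7% of 6). A single gene was lower on the exocrine pancreas list (4% of 25) and on the pituitary hormone list (4.35% of 23). Over all genes the shares were 2.17% higher and 2.29% lower. ER stress and cholesterol synthesis each had 0 higher without Cd replicate 1 or 2 or PCB126 replicate 1 or 2. Exocrine pancreas had 0 lower without Cd replicate 1, 2 or 4. The pituitary list's gene was igf2a, for an insulin-like growth factor (-0.81 ± 0.11, adjusted p = 0.00139).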
